A study of Gallus gallus with 10 samples.

Results

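In the kidneys of broiler chickens, 23 genes had a lower share of the counted reads in each of the 3 birds fed the lowest dietary calcium (Ca) than in any of the other 7 birds. They were chosen from a table of 17108 counted genes, of which 10410 had a mean of at least 5 CPM (a gene's count scaled by the total of all counts in its library, per 1e6 fragments). A gene was taken where its highest CPM at 0.8% Ca lay below its lowest CPM in the other 7 birds and the mean of those 7 was at least 1.25 times the mean at 0.8% Ca. The selection left out 3 identifiers, 1 of which met these criteria. The 23 genes are 0.221% of the genes at 5 CPM or more. Because measured differences from 0.8% Ca chose them, those differences are given below as a description with no test.

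The birds were Ross 308 broilers, a fast-growing meat strain, fed diets with 0.8% Ca (3 birds), 1.0% Ca (4 birds) or 1.2% Ca (3 birds) until 21 days post-hatch. All 3 diets held non-phytate phosphorus at a common level and carried a commercial phytase, an enzyme that frees phosphorus from plant phytate, and birds were taken with a body weight near the mean of their diet. RNA of whole kidney tissue was sequenced as 1 library per bird, with 6176553 to 7857813 counted fragments per library, so that 1 CPM stood for 6.18 to 7.86 counts. The column headers place all 0.8% Ca libraries in sequencing lane 2, all 1.2% Ca libraries in lane 1, and the 1.0% Ca libraries in lane 1 (replicates 1 and 2) and lane 2 (replicates 3 and 4).

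The kidney adjusts how much filtered calcium and phosphate is returned to the blood. Parathyroid hormone and the active form of vitamin D raise calcium uptake in the distal tubule, parathyroid hormone lowers phosphate uptake in the proximal tubule, and a calcium-sensing receptor in the thick ascending limb responds to blood calcium. Bird kidneys hold nephrons with a loop of Henle beside others without, embedded in blood vessels, connective tissue and immune cells, so a whole-tissue library mixes the RNA of all of these.

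None of the 23 genes is paired with a symbol in the sources used here, and the gene reference table matched 0 of the identifiers, so no function is given for any of them. They are numbered from 1 to 23 by falling ratio of the mean CPM of the other 7 birds to the mean at 0.8% Ca, and gene 1 (ENSGALG00000011837) and gene 2 (ENSGALG00000010988) are given by identifier. The others are given by their position in the chicken genome build Galgal4. The check of the tissue label against marker genes could not be made either, because 0 of 14 markers of the proximal tubule, loop and distal tubule, collecting duct and podocyte were identified. Of 22 genes of calcium and phosphate handling, 0 were identified, so the levels of that pathway are not analysed here.

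Most of the differences that chose these genes were modest. The ratio had a median of 1.34 and ran from 1.26 to 2.01, with 3 genes at 1.5 or more and 17 under 1.4. Over all 10410 genes the median ratio was 1.01. A ratio of 1.25 or more was found for 578 genes (5.55%), of which 554 overlapped between the groups, and 121 genes lay lowest in all 3 birds at 0.8% Ca without reaching that ratio. With no minimum ratio 144 genes (1.38%) were lowest in all 3 birds. The same criteria in the other direction took 268 genes (2.57%) that were highest in all 3 birds at 0.8% Ca. Genes that were lowest at 0.8% Ca by this measure were thus fewer than those that were highest. Just inside the minimum ratio stood genes 23 and 22 at 1.26 and 1.27, and the nearest genes outside it had 1.249 and 1.2486. Just inside the minimum level stood genes 4 and 1 with mean values of 5.06 and 5.47 CPM, and the nearest genes outside it had 4.86 and 4.66 CPM.

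**Figure D1:**
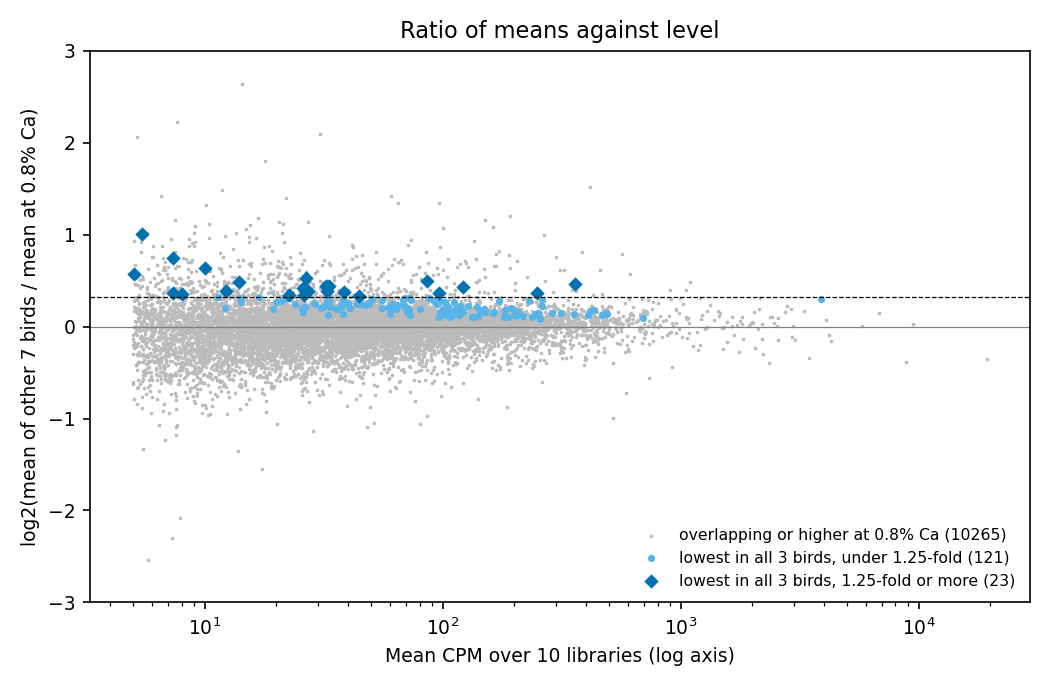
Ratio of the mean CPM of the 7 birds at 1.0% and 1.2% Ca to the mean at 0.8% Ca (vertical axis, log2) against the mean CPM over the 10 libraries (horizontal, log axis), 1 point per gene at 5 CPM or more. Dark diamonds are the 23 genes, light dots the 121 genes lowest in all 3 birds at 0.8% Ca with a smaller ratio, and grey dots the rest; the dashed line is the ratio of 1.25, and 3 genes lie outside the plotted range.

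Gene 1 (chr4:53045609-53047756, minus strand) had the largest ratio, 2.01. It measured 3.24, 2.85 and 3.53 CPM in the birds at 0.8% Ca, 8.69, 6.36, 4.92 and 7.64 CPM at 1.0% Ca, and 5.10, 5.78 and 6.62 CPM at 1.2% Ca. The bird nearest to the 0.8% Ca group was 1.0% Ca replicate 3, and the highest was 1.0% Ca replicate 1. Gene 1 was also among the shallowest, with 19 to 57 counts per library.

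Gene 2 (chr2:31698417-31729759, plus strand, 11 exon entries) had a ratio of 1.67. Its values were 4.53, 5.56 and 4.94 CPM at 0.8% Ca, 7.08, 9.19, 8.36 and 6.17 CPM at 1.0% Ca, and 11.8, 7.94 and 8.14 CPM at 1.2% Ca. Here the highest bird was 1.2% Ca replicate 1, so that gene 1 and gene 2 differed in which diet held their highest bird. Gene 3 (chr12:7206945-7220366), with a ratio of 1.56, measured 5.67, 8.11 and 7.77 CPM at 0.8% Ca, 12.9, 16.1, 8.80 and 10.2 CPM at 1.0% Ca, and 9.66, 10.5 and 10.2 CPM at 1.2% Ca.

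Gene 8 (chr4:88591438-88654154, 37 exon entries) drew the most counts of the 23, 1427 to 2963 per library. It measured 231, 330 and 296 CPM at 0.8% Ca, 439, 419, 392 and 375 CPM at 1.0% Ca, and 372, 403 and 351 CPM at 1.2% Ca, a ratio of 1.37. Its spread at 0.8% Ca came mostly from replicate 1, the lowest bird, with a CV (the SD as a percent of the mean) of 17.7% at 0.8% Ca (n = 3), 7.002% at 1.0% Ca (n = 4) and 7.01% at 1.2% Ca (n = 3). Gene 18 (chr4:83450304-83469111) is on the same chromosome and measured 196, 231 and 194 CPM at 0.8% Ca, 251, 254, 284 and 275 CPM at 1.0% Ca, and 255, 298 and 252 CPM at 1.2% Ca, a ratio of 1.29. Its highest bird at 0.8% Ca was replicate 3.

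Gene 11 (chr4:38947850-38962863) had closely similar levels in the other 7 birds. It measured 130, 133, 131 and 134 CPM at 1.0% Ca and 129, 129 and 142 CPM at 1.2% Ca, whereas the birds at 0.8% Ca had 72.7, 105 and 117 CPM. Its CV was 1.37% at 1.0% Ca (n = 4), 5.64% at 1.2% Ca (n = 3) and 23.3% at 0.8% Ca (n = 3). The spread between birds was thus on the side of the lowest diet. Across all 23 genes the median CV was 10.7% at 0.8% Ca, 8.42% at 1.0% Ca and 10.7% at 1.2% Ca. For all genes at 5 CPM or more these medians were 11.7%, 12.6% and 11.5%. A choice of genes whose groups do not overlap favours genes with little spread, so the smaller values of the 23 are not read further.

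In genes 5, 9, 10 and 22 the highest bird was 1.2% Ca replicate 1 or 2. Gene 9 (chr2:111687480-111704526) measured 21.9, 30.8 and 25.0 CPM at 0.8% Ca, 37.5, 34.1, 33.4 and 31.5 CPM at 1.0% Ca, and 41.6, 35.7 and 32.6 CPM at 1.2% Ca. Gene 22 (chr13:13261655-13281786) measured 21.9, 21.3 and 22.7 CPM, then 26.7, 30.1, 28.6 and 24.8 CPM, and then 30.6, 30.2 and 23.9 CPM in the same order of diets. Both were highest in 1.2% Ca replicate 1, and in gene 22 the 3 birds at 0.8% Ca lay closest together of all 23 genes (CV 3.26%). Gene 5 (chr2:62756871-62762088) measured 16.8, 22.1 and 22.2 CPM at 0.8% Ca, 32.3, 22.3, 26.6 and 22.9 CPM at 1.0% Ca, and 28.6, 45.6 and 27.1 CPM at 1.2% Ca. Gene 10 (chr4:23236487-23257108) measured 29.6, 28.1 and 22.3 CPM, then 32.3, 36.9, 40.3 and 34.2 CPM, and then 33.4, 40.9 and 34.9 CPM. In gene 5 a single bird, 1.2% Ca replicate 2, stood well above the rest, whereas gene 10 had 1.0% Ca replicate 3 at almost the level of that bird.

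Other genes were highest in a bird at 1.0% Ca. Gene 13 (chr3:37365304-37388562) measured 19.9, 23.7 and 23.3 CPM at 0.8% Ca, 28.2, 37.2, 26.3 and 32.8 CPM at 1.0% Ca, and 27.8, 26.3 and 26.5 CPM at 1.2% Ca. Gene 21 (chr28:3966089-3971791) measured 18.1, 18.3 and 20.5 CPM, then 27.0, 24.2, 21.2 and 21.3 CPM, and then 25.4, 26.4 and 23.03 CPM. In gene 21 the lower birds at 1.0% Ca were those of lane 2, and in gene 13 the lanes overlapped. Gene 23 (chr2:22812393-22826798) measured 36.9, 34.8 and 41.5 CPM, then 44.7, 47.2, 51.5 and 50.7 CPM, and then 49.0, 46.5 and 44.3 CPM, with both lane 2 birds above both lane 1 birds at 1.0% Ca. The directions between lanes thus differed from gene to gene.

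**Figure D2:**
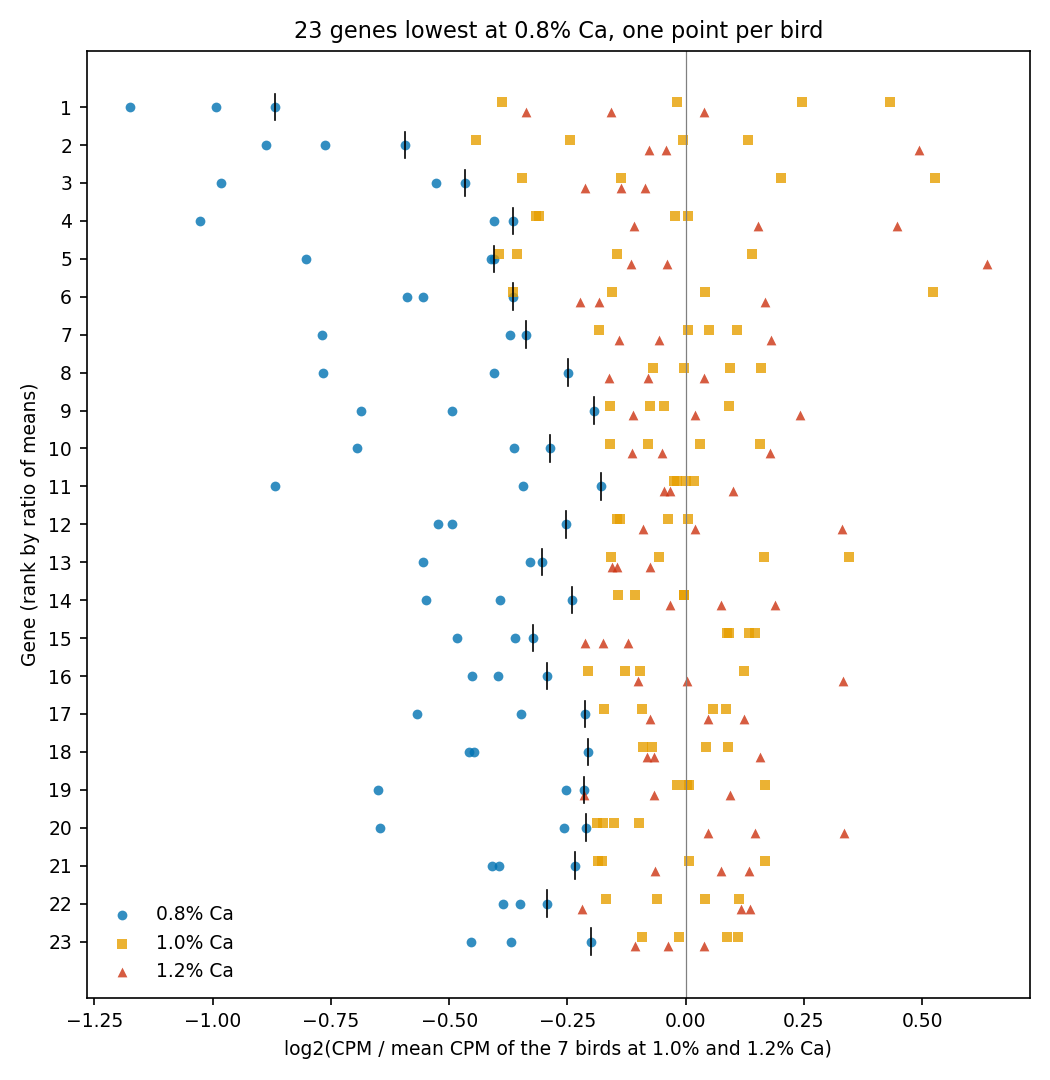
Level of each of the 23 genes in each bird, as log2 of its CPM over the mean CPM of the 7 birds at 1.0% and 1.2% Ca (horizontal axis), with the genes in order of their ratio (vertical axis); circles are 0.8% Ca, squares 1.0% Ca and triangles 1.2% Ca, and a short line marks the highest bird at 0.8% Ca. The circles lie left of all other symbols in each row by construction, and in rows 5, 6, 19 and 20 the nearest symbols almost touch.

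The width of the gap between the groups was small for most genes. The gap is the lowest CPM of the other 7 birds minus the highest CPM at 0.8% Ca, and its counting error is the standard error that Poisson counts of these sizes give. The gap was under 1 counting error in 19 of the 23 genes and at least 1 in 4, namely genes 1, 8, 11 and 18. It was at least 2 in genes 8 and 18 alone, at 2.12 and 2.21. In genes 5, 6, 19 and 20 it was under 0.1 counting error. Gene 6 (chr21:3541011-3559591), for example, measured 73.50 CPM in 0.8% Ca replicate 1 and 73.53 CPM in 1.0% Ca replicate 1. A recount of the same RNA could therefore move any of the 19 genes under 1 counting error across the selection. This holds most for genes 5, 6, 19 and 20.

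The birds at 0.8% Ca did not contribute equally. Replicate 1 was the lowest of all 10 libraries in 14 of the 23 genes, replicate 3 in 6 and replicate 4 in 3. The median level over the 23 genes, as a percent of the mean of the other 7 birds, was 68.0% in replicate 1, 77.2% in replicate 3 and 76.0% in replicate 4. Over all genes at 5 CPM or more, replicate 1 was the lowest of the 3 birds in 41.6%. This library also had the fewest counted fragments, 6176553. With it left out, the median ratio of the 23 genes was 1.28 (1.18 to 2.02), and 17 of them kept a ratio of 1.25 or more. At the other end, 1.2% Ca replicate 1 was the highest library in 7 genes and 1.2% Ca replicate 2 in 6. The share of all genes that were highest in these libraries is not given here, so these counts are not read as particular to the 23.

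The 23 genes covered a wide range of expression. On the scale of CPM per kilobase of exon, which allows levels of different genes to be compared, they ran from 2.60 in gene 1 to 87.6 in gene 18, with a median of 14.1, and all genes at 5 CPM or more had a median of 18.4. Gene 8 followed gene 18 at 76.7, and gene 23 came next at 50.2. Exon length ran from 363 bases in gene 20 (chr2:24977017-24990219) to 5827 bases in gene 11, with a median of 2306 bases against 2421 over all genes. Before division by length, 6 of the 23 genes had a mean under 10 CPM, 14 lay from 10 to 100 CPM and 3 were above.

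Lane and diet could be compared only in part. All 3 birds at 0.8% Ca were in lane 2, so the sole comparison with 0.8% Ca inside a lane uses the 2 birds of lane 2 at 1.0% Ca. In those, the ratio to the mean at 0.8% Ca had a median of 1.34 over the 23 genes and ran from 1.12 in gene 21 to 1.96 in gene 1. For the 2 birds of lane 1 at 1.0% Ca the median was 1.34 (1.13 to 2.35), and for the 1.2% Ca birds of lane 1 it was 1.36 (1.16 to 1.86). The selection places each of these birds above all birds at 0.8% Ca, so every ratio is over 1 by construction and the values say nothing of the part of the lane. Between 1.2% and 0.8% Ca, lane and diet cannot be told apart.

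The comparison of 1.2% with 1.0% Ca asks whether the genes differed further between the higher diets. The selection did not use the difference between these diets, but it favours genes with little spread among their birds. For the 23 genes this comparison is thus not independent of the selection, which favours small differences. None of the 23 genes passed the test, edgeR's quasi-likelihood test with Benjamini-Hochberg adjustment at an adjusted p under 0.05, and neither did any of the 12187 genes tested (0%). At an unadjusted p under 0.05 there was 1 of the 23 genes, and 448 of all genes (3.68%). The likelihood ratio test and DESeq2 called 3 genes each, none of them among the 23, and limma-voom called 0. The median log2 fold change was 0.0021 over the 23 genes, with 13 above 0, and -0.0021 over all genes. The 23 values ran from -0.30 to 0.36, with standard errors from 0.082 to 0.24 and adjusted p-values from 0.961 to 1. All 23 of the 95% intervals lay within 1 log2 unit of 0 and 14 lay within 0.5, so larger differences than these lie outside the intervals. A p above the threshold does not show that the levels were alike.

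Gene 15 (chr11:9258357-9284701, plus strand, 18 exon entries) had the unadjusted p under 0.05. It measured 25.3, 27.5 and 28.2 CPM at 0.8% Ca, 39.1, 38.7, 37.6 and 37.5 CPM at 1.0% Ca, and 31.3, 30.5 and 32.5 CPM at 1.2% Ca. The 3 groups did not overlap, and the highest birds were those at 1.0% Ca. The log2 fold change from 1.0% to 1.2% Ca was -0.30 ± 0.082 (SE; 95% interval -0.48 to -0.12; adjusted p = 0.961, edgeR's quasi-likelihood test). It was the only one of the 23 genes with all 1.2% Ca birds below all 1.0% Ca birds, a pattern found in 1.64% of all genes at 5 CPM or more.

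Gene 20 was the only one with all 1.2% Ca birds above all 1.0% Ca birds, which held for 2.97% of all genes. Its values were 7.45, 7.21 and 5.51 CPM at 0.8% Ca, 7.56, 7.64, 7.76 and 8.04 CPM at 1.0% Ca, and 10.9, 9.53 and 8.91 CPM at 1.2% Ca. All 10 birds were thus ordered by diet, although the gap between 0.8% and 1.0% Ca was 0.11 CPM. The log2 fold change from 1.0% to 1.2% Ca was 0.32 ± 0.17 (SE; 95% interval -0.055 to 0.69; adjusted p = 0.961, edgeR's quasi-likelihood test). The mean CPM at 1.2% Ca was above that at 1.0% Ca in 15 of the 23 genes (65.2%), and in 52.0% of all genes. This count depended on the scaling of the libraries. In edgeR's fits the log2 fold change was above 0 in 15 of the 23 genes on total counts. It was above 0 in 13 with TMM scaling and in 11 with RLE scaling. Under these 3 scalings it was below 0 in 47.1%, 50.5% and 53.5% of all genes tested.

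Lanes were compared within the 1.0% Ca diet, 2 birds each. The selection did not use the lanes, but it favours genes with little spread among these birds. For the 23 genes this comparison is thus not independent of it. Again 0 of the 23 genes and 0 of 12369 genes tested (0%) passed edgeR's quasi-likelihood test. The likelihood ratio test called 1 gene and DESeq2 13, none of them among the 23. DESeq2 gave no adjusted p for at least genes 1, 2, 3 and 20, so it could not call these. Whether it gave one for each of the others is not stated here. At an unadjusted p under 0.05 there were 2 of the 23 genes, and 911 of all genes (7.37%). Gene 3 was higher in lane 1 (12.9 and 16.1 CPM) than in lane 2 (8.80 and 10.2 CPM), with a log2 fold change of 0.59 ± 0.22 (SE; 95% interval 0.083 to 1.09). Gene 6 was lower in lane 1 (73.5 and 85.0 CPM) than in lane 2 (136 and 97.3 CPM), with a log2 fold change of -0.58 ± 0.18 (SE; 95% interval -0.99 to -0.17). The adjusted p was 0.652 for both in edgeR's quasi-likelihood test, so neither passed. Both lane 1 birds were above both lane 2 birds in 7 of the 23 genes (25.9% of all genes) and below them in 6 (18.2% of all genes). Of the 23 intervals, 21 lay within 1 log2 unit of 0 and 9 within 0.5.

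**Figure D3:**
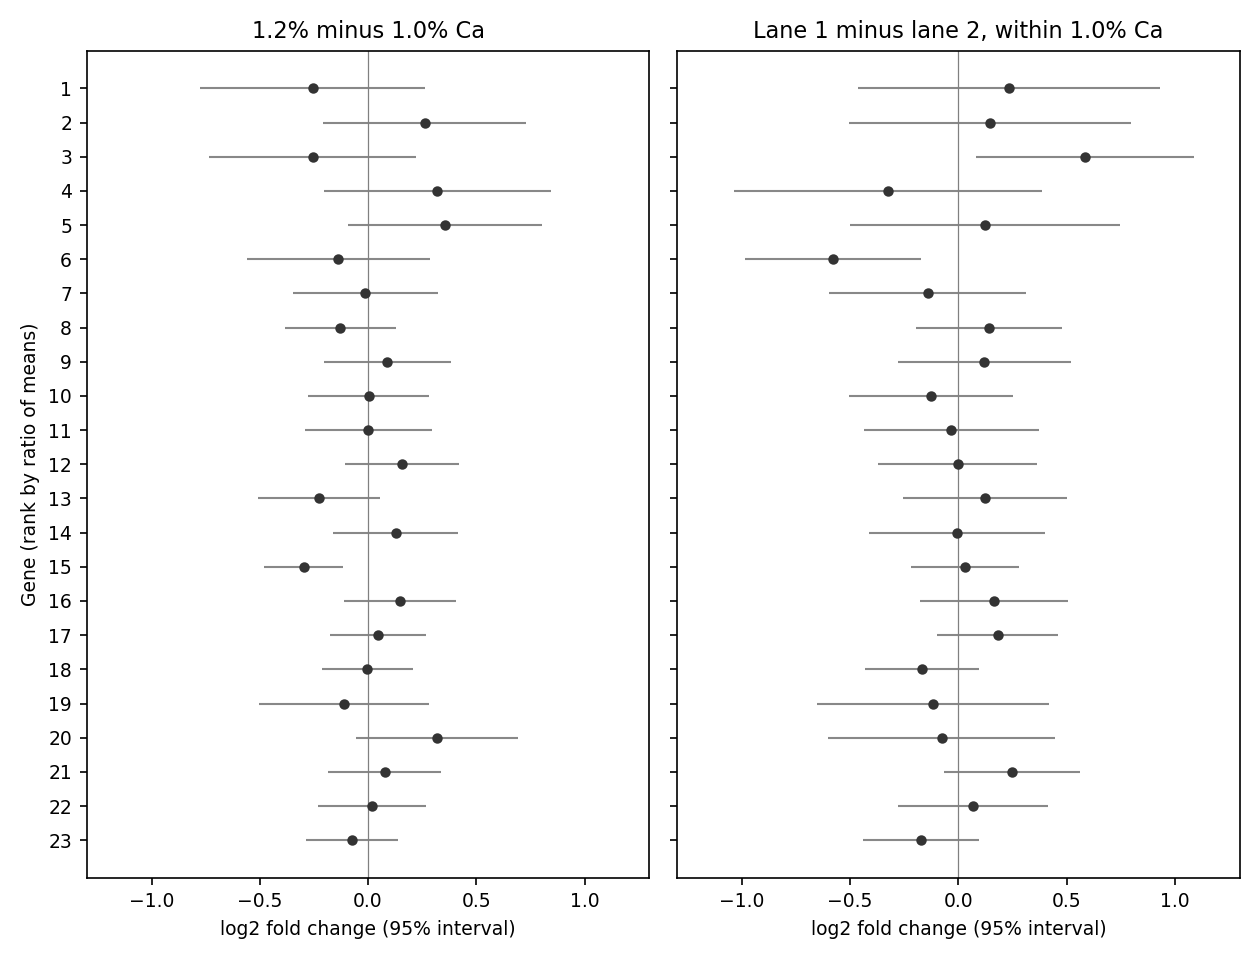
Log2 fold changes with 95% intervals of the 23 genes (vertical axis, in order of their ratio) between 1.2% and 1.0% Ca (left) and between lane 1 and lane 2 within 1.0% Ca (right), from edgeR's quasi-likelihood fit. On the left the interval of gene 15 alone leaves out 0, and on the right those of genes 3 and 6, and none of these passed after adjustment.

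The comparisons with 0.8% Ca chose the genes, so only their counts over all genes are given. Between 1.0% and 0.8% Ca, 0 of 12187 genes (0%) passed edgeR's quasi-likelihood test, 1034 (8.48%) had an unadjusted p under 0.05, and the likelihood ratio test, DESeq2 and limma-voom called 22, 31 and 0. Between 1.2% and 0.8% Ca the quasi-likelihood test called 0 (0%), 1075 (8.82%) had an unadjusted p under 0.05, and the other 3 called 19, 42 and 0. The log2 fold changes of the 23 genes were 0.22 to 1.12 from 0.8% to 1.0% Ca and 0.22 to 0.89 from 0.8% to 1.2% Ca, all above 0 by construction.

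Among the 7 birds at 1.0% and 1.2% Ca, pairs of the 23 genes were about as often negatively as positively correlated. The selection favours genes with little spread among these birds, so these correlations are not independent of it. Whether the 23 genes vary together was not tested. Pearson's r of log2 CPM over these 7 birds, which share lanes and diets in part, was positive in 128 of the 253 pairs of genes and negative in 125, with a median of 0.00434. Over all pairs of genes at 5 CPM or more the median was 0.0079. Values above 0.8 were found in 6 pairs (2.37%, against 2.9% of all pairs) and values below -0.8 in 3 (1.19%, against 2.28%). The highest was 0.843, between gene 17 and gene 21, and the lowest was -0.92, between genes 15 and 20, the members with the opposite order of the higher diets described above. Gene 12 (chr1:179477306-179484738; 19.4 to 23.4 CPM at 0.8% Ca and 25.3 to 35.1 CPM in the other birds) had r = 0.832 with gene 14 (chr1:154791543-155045502) and 0.818 with gene 16 (chr5:8361714-8387323), all 3 being highest in 1.2% Ca replicate 2.

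**Figure D4:**
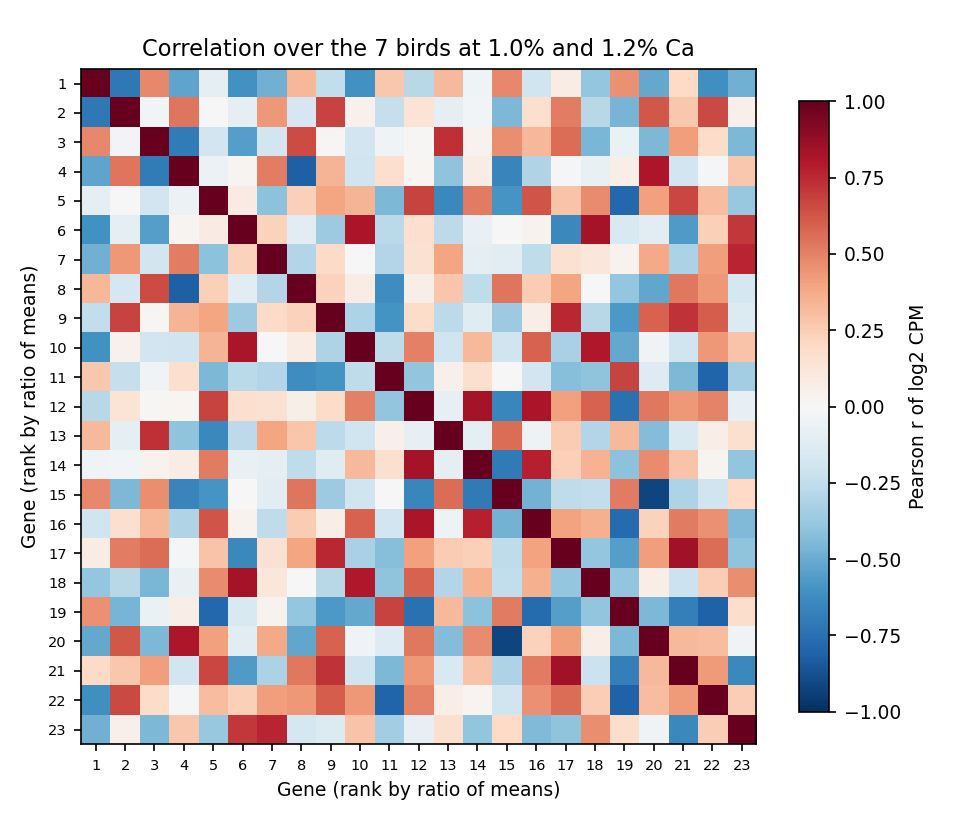
Pearson's r of log2 CPM between each pair of the 23 genes over the 7 birds at 1.0% and 1.2% Ca (colour scale from -1 to 1), with the genes in order of their ratio on both axes. Red and blue cells are mixed through the matrix, with 128 positive and 125 negative pairs.

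The 23 genes lay on 10 chromosomes. Chromosomes 2 and 4 held 5 each, chromosome 5 held 4, chromosomes 1 and 21 held 2 each, and chromosomes 3, 11, 12, 13 and 28 held 1 each. Chromosomes 1 to 5 together held 17 (73.9%), against 43.7% of all genes at 5 CPM or more, and the Z chromosome held 0, against 4.94%. Within chromosomes 1 to 5, chromosomes 2, 4 and 5 were above their share (21.74%, 21.74% and 17.39%, against 8.8%, 7.25% and 6.24%). Chromosomes 1 and 3 were below it (8.7% and 4.35%, against 13.47% and 7.95%). These shares are descriptive and were not tested.

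Genes 6 and 17 were neighbours on chromosome 21, both on the minus strand, 13464 bases apart with no counted gene between them. Gene 17 (chr21:3573056-3581801) measured 69.9, 89.5 and 81.5 CPM at 0.8% Ca, 108, 110, 92.1 and 97.3 CPM at 1.0% Ca, and 113, 107 and 98.4 CPM at 1.2% Ca. Gene 6 measured 73.5, 62.9 and 64.4 CPM at 0.8% Ca, 73.5, 85.0, 136 and 97.3 CPM at 1.0% Ca, and 83.3, 106 and 81.1 CPM at 1.2% Ca. Although both were lowest at 0.8% Ca, they did not follow each other in the other 7 birds (r = -0.643), where the highest bird for gene 6, 1.0% Ca replicate 3, was the lowest for gene 17. Genes 4 (chr5:3526417-3559728) and 7 (chr5:3278139-3399446) were 126970 bases apart, both on the plus strand, with 2 counted genes between them and r = 0.509 over the 7 birds.

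Genes next to the 23 on the chromosome mostly did not share their ratio. The nearest genes at 5 CPM or more on either side that were not themselves among the 23 numbered 43, and their ratio of the other 7 birds to 0.8% Ca had a median of 1.04 (0.80 to 1.28). A ratio of 1.25 or more was found in 1 of the 43 (2.33%, against 5.55% of all genes), which lay 115 bases from gene 11 on the opposite strand and had 1.28. Fragments were counted without regard to strand, so reads near the border of this pair may have been assigned to either gene. This was not tested. Counted genes overlapped 2 of the 23. The one that overlaps gene 8 on its own strand had a mean of 0.29 CPM, and the one that overlaps gene 13 on the other strand had 0.014 CPM.

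Named genes gave a limited view of what moved beside the 23. The study's tables of differentially expressed genes and of PCR primers gave symbols for 146 genes at 5 CPM or more. Where a symbol came with a genome position only, it was used if that position overlapped exactly 1 counted gene. Most of these genes were listed because they differed in these birds, so they are not independent evidence of any direction. Of the 146, 77 had a ratio of 1.25 or more, and 1, an identifier that the selection leaves out, was lowest in all 3 birds at 0.8% Ca. The median profile of the 23 is low at 0.8% Ca by the selection, so likeness to it over all 10 birds ranks named genes largely by that same difference and is a description only. The 5 named genes whose log2 CPM over all 10 birds was most like the median profile of the 23 were FABP4 (r = 0.825), a fatty acid carrier of fat cells and macrophages, MFAP5 (0.82), a glycoprotein of elastic microfibrils, POLQ (0.777), a DNA repair polymerase, NCAPG2 (0.768), a subunit of the condensin complex that compacts chromosomes, and ASPM (0.751), a protein of the mitotic spindle poles. FABP4 measured 0.32, 0.45 and 1.41 CPM at 0.8% Ca, 5.79, 4.38, 2.09 and 2.95 CPM at 1.0% Ca, and 8.32, 24.6 and 1.27 CPM at 1.2% Ca. With 6.18 to 7.86 counts per CPM, the FABP4 values at 0.8% Ca rest on few counts. Its mean reached 5 CPM only through 1.2% Ca replicate 2. LPL, the other identified marker of fat cells, went the other way, with a ratio of 0.68. MFAP5 measured 181, 257 and 321 CPM at 0.8% Ca, 371, 381, 425 and 626 CPM at 1.0% Ca, and 573, 450 and 285 CPM at 1.2% Ca. In POLQ, NCAPG2 and ASPM replicate 1 was the lowest bird at 0.8% Ca, well below replicates 3 and 4. POLQ measured 8.42, 29.7 and 27.4 CPM in replicates 1, 3 and 4 at 0.8% Ca and 26.4 to 54.2 CPM in the other 7 birds. NCAPG2 measured 4.21, 13.2 and 17.8 CPM against 10.9 to 40.5 CPM, and ASPM 18.3, 85.3 and 81.5 CPM against 62.2 to 163 CPM. Each of the 5 had 1 of the other 7 birds at or below its highest bird at 0.8% Ca. Over the 7 birds at 1.0% and 1.2% Ca alone, r fell to 0.591 for FABP4, 0.393 for MFAP5, 0.129 for POLQ, 0.00941 for NCAPG2 and -0.026 for ASPM.

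Pathway genes and markers of other cell types were read from the same named genes. None of them passed edgeR's quasi-likelihood test in any of these comparisons, in which 0 genes were called, and no list's summed level was lowest, or highest, in all 3 birds at 0.8% Ca. The lowest bird was at 0.8% Ca in 7 of the lists, with overlap between groups in each. In 4 of these, some of which share genes, it was replicate 1. The fibroblast list, of which 2 of 7 markers were identified (MFAP5 and FBLN2), summed to 249, 389 and 449 CPM in replicates 1, 3 and 4 at 0.8% Ca, 492 to 866 CPM at 1.0% Ca and 419 to 765 CPM at 1.2% Ca. Of extracellular matrix genes, 13 of 30 were identified, with sums of 859, 1028 and 1226 CPM, then 1270 to 2083 CPM and 1223 to 1541 CPM. In these lists only the highest bird at 0.8% Ca reached the range of the others. The 2 fibroblast markers are also part of the matrix list, so the lists repeat these genes. Of the matrix genes, 1 (ADAMTS8, ratio 0.62) was highest in all 3 birds at 0.8% Ca and 0 were lowest in all 3. The 3 markers of dividing cells, all identified, summed to 81.9, 374 and 313 CPM at 0.8% Ca, 208 to 480 CPM at 1.0% Ca and 314 to 599 CPM at 1.2% Ca. Mitosis and DNA replication genes, 33 of 44 identified, summed to 533, 2118 and 1882 CPM, then 1310 to 2764 CPM and 2064 to 3685 CPM. The 3 markers of dividing cells are part of this list too. For cell division replicate 1 alone stood apart, and replicates 3 and 4 lay within the range of the 1.0% Ca birds, so without replicate 1 the lowest bird was 1.0% Ca replicate 3 in both lists. The other 3 lists were interferon-induced genes (12 of 28 identified, 946 to 1445 CPM, 1089 to 2939 CPM and 1144 to 2877 CPM), heterophil markers (3 of 6, 89.7 to 211 CPM, 121 to 285 CPM and 281 to 663 CPM) and erythroid markers (1 of 3, 6.16 to 13.4 CPM, 10.9 to 17.6 CPM and 13.4 to 41.1 CPM). By contrast, 3 of 6 endothelial markers (KLF2, APOLD1 and APLNR) summed to 377 to 584 CPM, 241 to 452 CPM and 191 to 303 CPM. Adipocyte markers (2 of 3, FABP4 and LPL) summed to 50.85 to 107.7 CPM, 40.02 to 80.72 CPM and 39.96 to 79.29 CPM. These 2 markers went opposite ways, with a ratio of 9.67 for FABP4 and 0.68 for LPL, and LPL made up most of the sum in each bird. The lymphocyte marker (1 of 6, IL2RG) measured 47.3 to 71.7 CPM, 30.6 to 37.8 CPM and 31.4 to 61.6 CPM. In each of these lists the highest bird was 0.8% Ca replicate 1, with overlap between groups. Myeloid markers (6 of 8) summed to 415 to 644 CPM, 260 to 469 CPM and 248 to 888 CPM, with the highest bird at 1.2% Ca. None of the markers named here is at 0 in a whole group, and the part of these cells in the levels of the 23 genes was not tested. In tissue RNA, fewer cells of a type and less RNA per cell cannot be told apart.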

How the data were processed

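RNA of 10 kidneys was sequenced, 1 library per bird. Per the file headers and the labels, the authors used HISAT2 2.0.4 to place trimmed read pairs on Galgal4, and featureCounts 1.5.0-p3 to assign them, as fragments and without a strand option, to genes of Ensembl release 84. The labels name a stranded library kit and the methods another kit whose strandedness is not given. The deposited values are raw counts, not normalized.

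CPM was computed on column totals, and the 23 genes were found from it. Counts were tested in R 4.3.3 with edgeR 4.0.16 (filterByExpr, which kept 12187 genes, or 12369 for the lane model, TMM scaling, quasi-likelihood test, two-sided, adjusted over all genes), with all 10 libraries in 1 fit. The likelihood ratio test, DESeq2 1.42.0, limma 3.58.1, other scalings, other filters, lane and replicate terms and the removal of each library were the alternatives. Scripts were tested on simulated data. The p-values set a difference against the spread between birds, and counting errors cover counting alone. Diets were allotted to groups of birds housed in floor pens, and the pen of each sampled bird is not given. The tests treat the birds as independent.

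Members with a symbol in the study's tables were to be named; none had one, so the 2 with the largest ratio are given by identifier, and the 5 named genes most correlated with the median profile were added. The genes, lists and markers were chosen with earlier results of these data known. Of genes 3 to 23, those given bird by bird were singled out after their values were seen. No sequence is shown, because no genome of this build was used here.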

Additional observations from a re-analysis of the deposited data

Results flagged for a closer look

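A bird far from the others of its group was looked for in each of the 23 genes among the 4 birds at 1.0% Ca, by the gap of the highest or lowest bird to its neighbour as a share of the whole range and Dixon's 95% limit for 4 values. It was found in 1 of the 23, gene 19 (chr5:5047728-5066881), where replicate 4 stood at 8.85 CPM (share 0.878) above 7.88, 7.78 and 7.91 CPM in replicates 1 to 3. Chance alone passes this limit in about 5% of groups, or about 1 gene in 20.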

How the results depend on the processing

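The number of genes that met the selection was 28 with CPM on TMM-scaled library sizes (22 of the 23 among them), 3 with a ratio of at least 1.5, and 144 with no minimum ratio. Removal of each library in turn gave 25 to 151 genes. Those counts were 52, 151 and 126 without 0.8% Ca replicates 1, 3 and 4, 69 without 1.0% Ca replicate 3 and 44 without 1.2% Ca replicate 3, and 17, 19, 21, 22 and 22 of the 23 were among them. With fewer birds to separate, more genes meet the selection by construction.

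Between 1.2% and 1.0% Ca the likelihood ratio test and DESeq2 called 3 genes each instead of 0, and removal of single libraries gave 0 to 1. Within 1.0% Ca between lanes they called 1 and 13. The median lane difference of the 23 genes ran from -0.058 to 0.030 without single libraries. Between 1.0% and 0.8% Ca they called 22 and 31 (0 to 2 without single libraries), and between 1.2% and 0.8% Ca 19 and 42. None of the 23 was called between 1.2% and 1.0% Ca or between lanes under any alternative run that kept more than 1 bird in each group compared. Between lanes, DESeq2 gave no adjusted p for at least genes 1, 2, 3 and 20, so it could not call these.

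The log2 fold change of gene 6 from 1.0% to 1.2% Ca turned from -0.14 to 0.18 with lane as a covariate and ran from -0.26 to 0.066 without single libraries (0.066 without 1.0% Ca replicate 3). Between lanes within 1.0% Ca, the log2 fold change of gene 1, 0.24, ran from -0.051 to 0.55 (-0.034 and -0.051 without replicates 1 and 3), that of gene 2, 0.15, from -0.098 to 0.37 (-0.059 and -0.098 without replicates 2 and 4), and that of gene 15, 0.030, from -0.0091 to 0.035 (-0.0066 and -0.0091 without replicates 1 and 4). The cause was not tested.

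Libraries with the same replicate number did not deviate together (r from -0.41 to 0.32 over 8 pairs of libraries), so the numbers were not taken to pair birds. With the replicate block, 0 genes were called between 1.2% and 1.0% Ca, 1 between lanes, and 0 in both comparisons with 0.8% Ca, and none was among the 23.

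Depth limits the 6 genes under 10 CPM most.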
